A study of Homo sapiens with 8 samples.

Results

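The 10 genes described here encode the 2 peptide hormones that human beta cells store, the enzymes that cut and trim them, and the granins that fill the same secretory granules: INS, IAPP, PCSK1, PCSK2, PCSK1N, CPE, CHGA, CHGB, SCG2 and SCG5. They were chosen by name, and all 10 were among the 16525 genes of the table. RNA was sequenced from EndoC-βH5 cells, a human beta cell line derived from fetal pancreas and supplied after removal of its immortalizing transgenes. The 4 control libraries came from untreated cells and the 4 cytokine libraries from cells exposed for 48 h to recombinant IL-1β, IFNγ and TNFα together, at 50, 1000 and 1000 U/mL in the study's methods. No allele or other agent separates the groups, and all 8 libraries come from 1 line. Each control library shares a column-name prefix with 1 cytokine library, and these pairs are called A, B, C and D; A and B share 1 ending of the prefix, C and D another. The labels number the samples of a group as replicates without saying that they were separate cultures, so p-values measure the spread between these samples, which may be technical.

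Insulin is made as a longer precursor that folds in the endoplasmic reticulum (ER), is packed into granules with zinc, and is cut there at pairs of basic residues. The convertases encoded by PCSK1 and PCSK2 make the cuts, and carboxypeptidase E, encoded by CPE, removes the basic residues left at the new ends. Islet amyloid polypeptide, encoded by IAPP, is processed by the same enzymes and released with insulin. PCSK1N encodes proSAAS, an inhibitor of the PCSK1 enzyme, and SCG5 encodes a small chaperone that the PCSK2 enzyme needs to become active. CHGA, CHGB and SCG2 encode granins, acidic proteins that aggregate in the forming granule.

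The sequences that the convertases read are shown first, because the 2 enzymes act on the precursors of both hormones. Each window holds the 6 bases of a basic codon pair in capitals with 12 coding bases on either side, taken from the GENCODE 29 transcripts on GRCh38. In INS the arginine-arginine pair lies between the B chain and the C-peptide, at codons 55 and 56 of 110 (chr11:2160792-2160821, minus strand), and the lysine-arginine pair between the C-peptide and the A chain, at codons 88 and 89 (chr11:2159906-2159935, minus strand).
INS arginine-arginine: acacccaagaccCGCCGGgaggcagaggac
INS lysine-arginine: gggtccctgcagAAGCGTggcattgtggaa
In IAPP, which has 89 codons, the lysine-arginine pair at codons 72 and 73 ends the mature peptide (chr12:21378358-21378387, plus strand). Another lysine-arginine pair lies at codons 80 and 81, in the peptide that follows (chr12:21378382-21378411, plus strand).
IAPP codons 72 and 73: aatacatatggcAAGAGGaatgcagtagag
IAPP codons 80 and 81: gtagaggttttaAAGAGAgagccactgaat

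By the steps of their values, the libraries were scaled to totals of 46767972 to 51145634 reads, of which 36577438 to 40117636 were on listed genes. These totals lie above the average library size that the study reports, and the reason was not tested. The share of reads elsewhere was lowest at 20.1% in cytokine library A and highest in pair D, at 26.6% in control and 26.5% in cytokine cells. All 12 beta cell markers were in the table, although SLC2A2, the glucose transporter gene GLUT2, was at 0.214 to 0.606 CPM (counts per 1000000 reads; values with ± are mean ± SD, n = 4 libraries a group). Markers of other islet cells were present as well. The alpha cell markers summed to 1717 to 2985 CPM in control and 2070 to 2927 CPM in cytokine libraries, mostly as TTR, and the delta cell markers to 364 to 2161 and 476 to 1994 CPM, mostly as SST. Of the 7 acinar markers only CPA1 was listed (2.82 to 9.04 CPM), 2 of 3 duct markers were listed (80.8 to 166 CPM in sum), and of 5 markers of stroma, endothelium and leukocytes only COL1A1 (at most 0.844 CPM). In bulk RNA, fewer cells of a type and less RNA per cell cannot be told apart.

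PCSK2 was lower and SCG2 higher after cytokine exposure, and no other gene of the 10 passed the test on all 8 libraries. The test was limma on log2(CPM + 0.1), with a gene called where its Benjamini-Hochberg adjusted p over all genes was below 0.05 and its log2 fold change was beyond 0.5 in either direction. By this rule 2 of the 10 genes were called, beside 27.0% of all genes; 1 was called higher (9.52% of all genes) and 1 lower (17.5% of all genes). The median log2 fold change was 0.33 over the 10 genes and -0.17 over all genes. Scaling by the trimmed mean of M values (TMM) in place of the deposited totals moved the median of all genes to -0.015 and that of the 10 to 0.48, and PCSK2 and SCG2 were again the 2 called. With the 4 pairs as a block, limma also called IAPP, which makes 3 of 10 beside 35.4% of all genes. With the block and TMM together it called IAPP, PCSK1, CHGA, SCG2 and SCG5 higher and PCSK2 lower, 6 of 10 beside 32.2% of all genes. On reads recovered from the CPM values, edgeR's quasi-likelihood test with TMM called IAPP, PCSK2 and SCG2 (24.6% of all genes), and with the block the same 6 genes (32.1% of all genes).

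**Figure D1:**
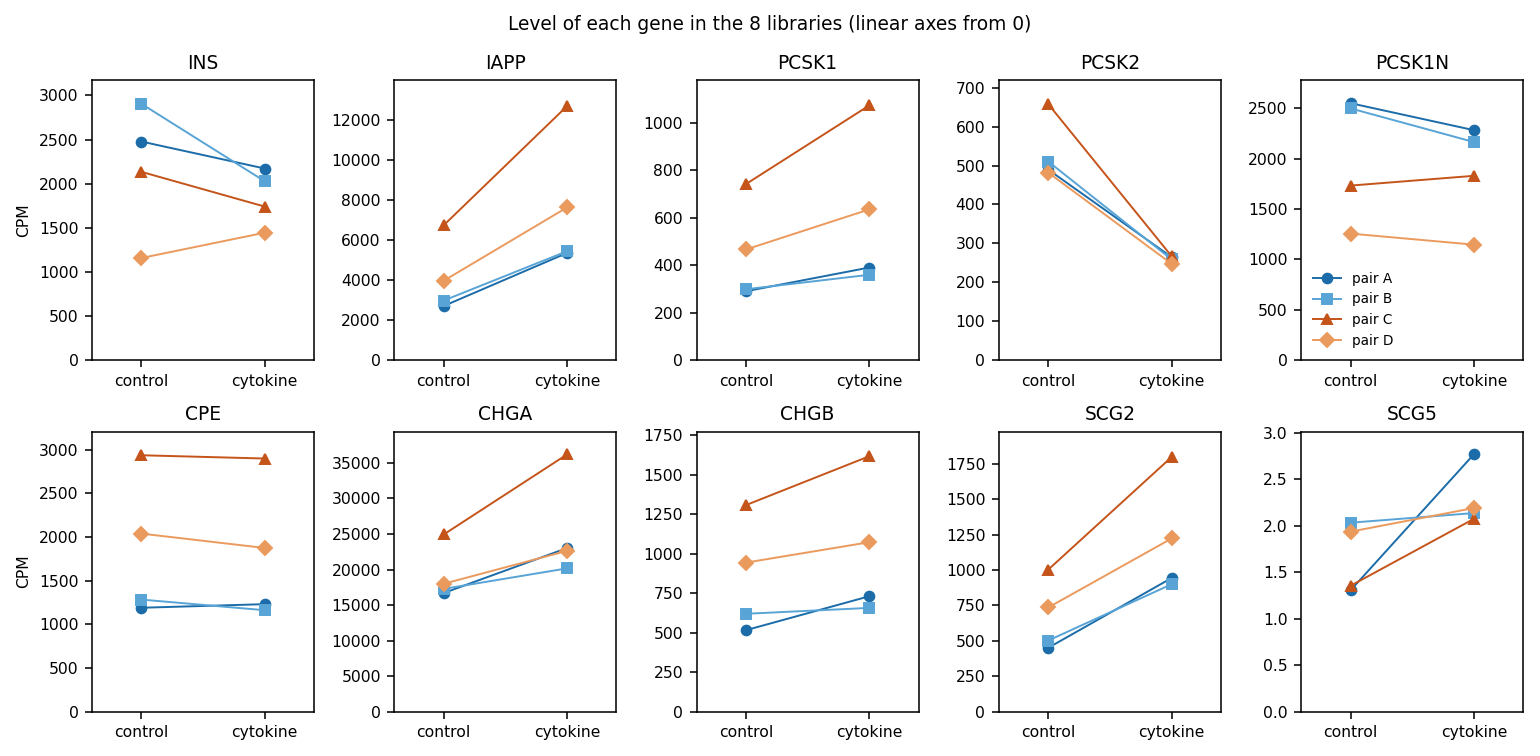
Level of each of the 10 genes in CPM (vertical axes, linear and starting at 0) in the control and cytokine libraries; a line joins the 2 libraries of a pair, blue for A and B and orange for C and D. All 4 lines of PCSK2 run down to between 248 and 267 CPM, all 4 lines of IAPP and SCG2 run up, and the lines of CPE are nearly flat at different heights.

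Neither hormone precursor passed limma on the deposited totals of all 8 libraries without the block, and IAPP passed it with the block. INS, on the minus strand of chromosome 11 (chr11:2159779-2161341), was at 2477, 2905, 2134 and 1158 CPM in control libraries A to D and at 2172, 2028, 1740 and 1445 CPM in cytokine libraries A to D. Control library D had the lowest level of the 8 and the groups overlapped. On the log2 scale INS differed by -0.17 (SE 0.28, adjusted p = 0.684 by limma), and it was negative in pairs A, B and C and positive, at 0.32, in pair D. With the block its SE was 0.096 (adjusted p = 0.141 by limma), and with the block and TMM the difference was -0.018 (SE 0.11).

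IAPP (chr12:21354959-21379978, plus strand) was at 2710, 2982, 6746 and 3972 CPM in control libraries A to D and at 5361, 5448, 12704 and 7637 CPM with cytokines. It was higher with cytokines in every pair, yet the groups overlapped because control library C lay above cytokine libraries A and B. The 4 pair differences were 0.98, 0.87, 0.91 and 0.94 on the log2 scale, while the fit without the block gave 0.93 with an SE of 0.36 (adjusted p = 0.0765 by limma). With the block the same change had an SE of 0.054 and passed (adjusted p = 3.52e-09 by limma). Leaving out control library C alone also brought the call without the block, at a log2 fold change of 1.20. On all 8 libraries without the block, IAPP was called relative to GAPDH (adjusted p = 0.0181 by limma). It was also called by edgeR with TMM (adjusted p = 0.0332) and by DESeq2 (adjusted p = 0.00191). In limma it was not called with TMM, median-of-ratios or quantile scaling.

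INS shares 246 of its 776 exon bases with the same-strand read-through gene INS-IGF2, which was not a row of the table. The study counted reads with the default settings of htseq-count, which assign no read that lies on 2 genes, so the INS level rests on part of its exons; the effect of this on the change was not tested. The downstream neighbour IGF2, a growth factor gene, fell from 385 ± 32.7 to 137 ± 7.97 CPM (log2 fold change -1.49, adjusted p = 3.89e-06 by limma). IAPP lies within the opposite-strand gene SLCO1A2, which was not listed, and the 2 share no exon base.

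Of the 2 convertases, PCSK2 fell with cytokines in every fit run, and PCSK1 was called, higher, only with the block and TMM together. PCSK2 (chr20:17226107-17484578, plus strand) was at 490, 510, 658 and 482 CPM in control libraries A to D and at 265, 259, 267 and 248 CPM in cytokine libraries A to D. The groups were far from overlapping, with the lowest control library at 482 CPM and the highest cytokine library at 267 CPM. PCSK2 fell by 1.03 on the log2 scale (SE 0.13, adjusted p = 0.000204 by limma), to 48.9% of its control level, and the pair differences ran from -1.30 to -0.89. It was called in all 8 fits that left out 1 library. The cytokine libraries were also close to each other, with a coefficient of variation of 3.37% against 15.5% in the controls.

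PCSK1 (chr5:96390415-96434143, minus strand) was at 290, 299, 741 and 466 CPM in control libraries A to D and at 390, 359, 1072 and 635 CPM with cytokines. It was higher with cytokines in every pair, by 0.27 to 0.53 on the log2 scale, but the spread between pairs exceeded that difference and the groups overlapped. PCSK1 differed by 0.42 on the log2 scale (SE 0.38, adjusted p = 0.437 by limma). With the block the adjusted p was 2.12e-05, and the fold change stayed under the threshold of 0.5 until TMM scaling took it to 0.57 (SE 0.064, adjusted p = 7.47e-06 by limma).

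The promoters of these 2 genes are shown because their ratio did not overlap between the groups, although its adjusted p was not under 0.05. That of IAPP is shown because it had the steadiest difference over the pairs. RefSeq start sites on GRCh38.p14 were at hand for 8 of the 10 genes, with 11 entries in all and none for CHGB and SCG2. The 250 bases before 1 start of each gene are given 5′ to 3′ on the gene's strand, for PCSK1 (chr5:96433249-96433498, minus strand), PCSK2 (chr20:17226790-17227039, plus strand) and IAPP (chr12:21372652-21372901, plus strand). Capitals mark TGACG, the shorter core of the cAMP response element, and TAAT, the core that homeobox factors such as PDX1 bind, on either strand.
PCSK1: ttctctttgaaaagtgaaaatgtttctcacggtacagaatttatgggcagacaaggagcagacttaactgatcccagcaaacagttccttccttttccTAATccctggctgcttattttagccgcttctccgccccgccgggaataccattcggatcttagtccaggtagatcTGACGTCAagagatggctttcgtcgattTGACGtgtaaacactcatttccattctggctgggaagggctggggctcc
PCSK2: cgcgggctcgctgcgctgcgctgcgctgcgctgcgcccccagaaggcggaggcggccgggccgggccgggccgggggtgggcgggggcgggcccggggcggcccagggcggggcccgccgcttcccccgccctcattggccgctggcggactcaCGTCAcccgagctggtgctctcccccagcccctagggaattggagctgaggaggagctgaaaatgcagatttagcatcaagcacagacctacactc
IAPP: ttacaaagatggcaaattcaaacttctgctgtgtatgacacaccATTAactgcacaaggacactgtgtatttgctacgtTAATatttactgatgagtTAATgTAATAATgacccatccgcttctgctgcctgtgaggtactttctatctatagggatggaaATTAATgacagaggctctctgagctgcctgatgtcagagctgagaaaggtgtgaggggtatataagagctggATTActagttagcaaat
The PCSK1 stretch holds the full palindrome TGACGTCA, which begins at position -77 from the start. Among the 11 entries that palindrome was also found in CHGA, at -54, and over all 35116 promoters 1.85% hold it. TGACG was found in 7 of the 11 entries (24.6% of all promoters) and TAAT in 5 (50.2%), with 8 matches in the IAPP entry shown, some of them overlapping. Short cores of cytokine-activated factors were searched on both strands over the 300 bases from 250 before to 50 after each start. The interferon-γ-activated core TTCNNNGAA was found in 1 entry, the other start of IAPP (7.66% of all promoters), the interferon-response core GAAANNGAA in 1, the PCSK1 start shown (8.11%), and the NF-κB core GGANNTTCC in 1, the other start of PCSK2 (4.56%). The E box CANNTG was found in 8 of the 11 entries (68.7% of all promoters). A match describes the letters in the window and is not a measured binding site.

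Of the partners of the convertases, the inhibitor showed no change past the test and the chaperone had the lowest level of the 10. PCSK1N (chrX:48831094-48835633, minus strand) was at 2550, 2498, 1732 and 1256 CPM in control libraries A to D and at 2282, 2164, 1829 and 1146 CPM with cytokines. The change of PCSK1N was -0.11 on the log2 scale (SE 0.29, adjusted p = 0.816 by limma) and turned to 0.048 (SE 0.074) with the block and TMM. SCG5 (chr15:32641676-32697098, plus strand) was at 1.30, 2.03, 1.35 and 1.94 CPM in control and 2.77, 2.14, 2.07 and 2.19 CPM in cytokine libraries, from 61 to 99 and from 100 to 130 reads. Every cytokine library lay above every control library, but the highest control and the lowest cytokine library differed by little. SCG5 differed by 0.46 on the log2 scale (SE 0.22, adjusted p = 0.142 by limma) and 0.61 (SE 0.20, adjusted p = 0.0180 by limma) with the block and TMM. RefSeq lists a read-through gene, ARHGAP11A-SCG5 (chr15:32615476-32697098), that spans SCG5 whole, and reads on both genes would go uncounted under the settings named for INS; the part of this in the low level of SCG5 was not tested. The remaining overlaps in GENCODE 29 were with AC104123.1 opposite PCSK1, DYNLT3P1 opposite PCSK2, MIR578 and HADHAP1 at CPE, and AC123768.1 opposite SCG5, of which only the last shares exon bases (11) and none was a row of the table. The groups did not overlap for PCSK2 and SCG5, 2 of 10 genes beside 32.8% of all genes.

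CPE (chr4:165361194-165498320, plus strand), the trimming enzyme, was at 1189, 1283, 2935 and 2038 CPM in control libraries A to D and at 1230, 1161, 2898 and 1873 CPM with cytokines. Each pair was nearly level, and the range of the 8 libraries lay between the pairs. The cytokine difference of CPE was -0.059 on the log2 scale (SE 0.35, adjusted p = 0.918 by limma), with an SE of 0.054 under the block (adjusted p = 0.37 by limma) and a value of 0.094 (SE 0.062) under the block and TMM.

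The granins were all higher with cytokines in all 4 pairs, and SCG2 had the largest difference of the 3. SCG2 (chr2:223596940-223602503, minus strand), which is also cut into the peptide secretoneurin, was at 451, 502, 1003 and 735 CPM in control libraries A to D and at 943, 899, 1798 and 1222 CPM with cytokines. The groups overlapped, since control library C lay above cytokine libraries A and B. SCG2 rose by 0.87 on the log2 scale (SE 0.29, adjusted p = 0.0403 by limma), and by 0.73 to 1.07 within pairs. Without the block this call was lost when control library A, B or D or cytokine library C or D was left out, at log2 fold changes of 0.66 to 0.94 and adjusted p of 0.0571 to 0.109 by limma. With the block the adjusted p was 2.05e-08 by limma.

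CHGA (chr14:92923080-92935293, plus strand) was by far the most abundant of the 10, at 16689, 17274, 24930 and 17991 CPM in control and 23019, 20160, 36198 and 22627 CPM in cytokine libraries A to D. Control library C lay above cytokine libraries A, B and D, so the groups overlapped. The difference was 0.39 on the log2 scale (SE 0.34, adjusted p = 0.422 by limma), with pair differences of 0.22 to 0.54, and 0.54 (SE 0.1, adjusted p = 0.000498 by limma) with the block and TMM. CHGB (chr20:5911430-5925361, plus strand) was at 515, 619, 1307 and 943 CPM in control and 730, 656, 1617 and 1072 CPM in cytokine libraries. Its pair differences ran from 0.085 to 0.50, and the groups overlapped. CHGB differed by 0.27 on the log2 scale (SE 0.34, adjusted p = 0.587 by limma) and 0.42 (SE 0.067, adjusted p = 0.000152 by limma) with the block and TMM, short of the fold threshold in both fits.

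**Figure D2:**
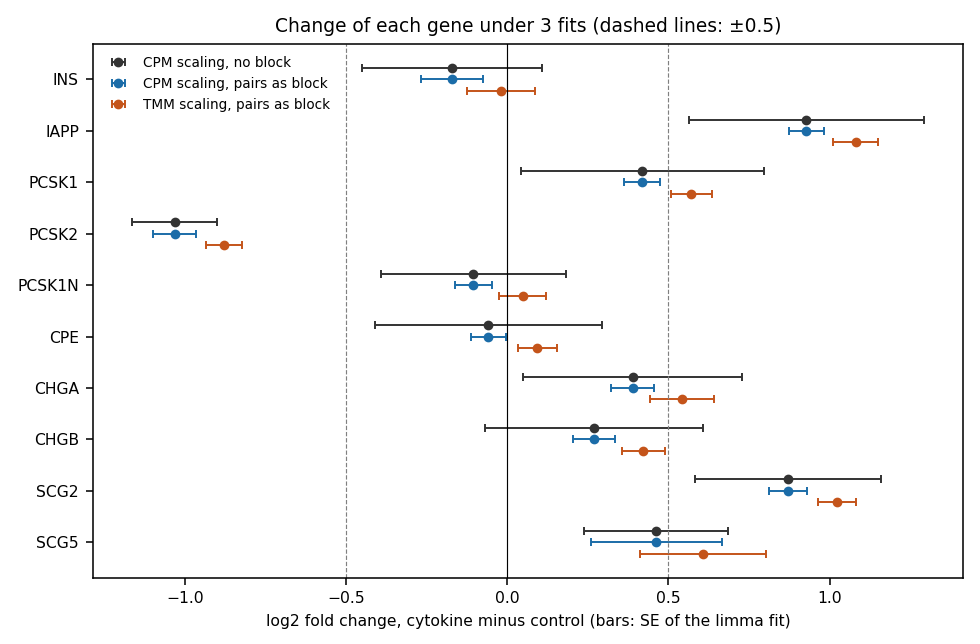
Log2 fold change, cytokine minus control, of each gene under 3 limma fits (horizontal axis; bars are the SE of the fit, dashed lines the threshold of 0.5 in either direction). Taking the pairs as a block narrows the bars of IAPP from 0.36 to 0.054 and of CPE from 0.35 to 0.054 without moving the points, and TMM scaling moves every point up by about the same amount.

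In 7 of the 10 genes the 4 pairs had the same direction, higher for IAPP, PCSK1, CHGA, CHGB, SCG2 and SCG5 and lower for PCSK2, beside 65.8% of all genes with a same direction in all 4 pairs. For INS, PCSK1N and CPE the pairs split 1 higher against 3 lower.

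Ratios of 2 genes within a library do not depend on how libraries are scaled, and 6 were tested with a 2-sided exact permutation test of 4 against 4 libraries, whose smallest possible p is 0.0286. They are ratios of CPM values and are read between libraries only. PCSK1 over PCSK2 was 0.593, 0.585, 1.13 and 0.967 in control libraries A to D and 1.47, 1.39, 4.01 and 2.56 with cytokines. The groups did not overlap, and the ratio was 2.73-fold higher with cytokines (exact permutation p = 0.0286, adjusted over the 6 ratios 0.0571). It was higher by 1.25 to 1.83 on the log2 scale within pairs. CPE over PCSK1 was within 3.96 and 4.37 in all control libraries, although CPE ran from 1189 to 2935 CPM and PCSK1 from 290 to 741 CPM across them, and within 2.70 and 3.23 in all cytokine libraries. This difference of -0.48 on the log2 scale reached the same exact permutation p of 0.0286 (adjusted 0.0571).

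PCSK2 over its chaperone gene SCG5 was 249 to 486 in control and 95.6 to 129 in cytokine libraries, again without overlap (difference -1.49 on the log2 scale, exact permutation p = 0.0286, adjusted 0.0571), and it carries the limit on the SCG5 level given above. INS over IAPP was 0.914, 0.974, 0.316 and 0.292 in control and 0.405, 0.372, 0.137 and 0.189 in cytokine libraries A to D. It was lower with cytokines in all 4 pairs, by 0.62 to 1.39 on the log2 scale, but the groups overlapped (difference -1.10, exact permutation p = 0.171, adjusted 0.257). PCSK1 over its inhibitor gene PCSK1N differed by 0.52 (exact permutation p = 0.514), with 0.45 to 0.59 within pairs, and CHGA over CHGB by 0.12 (exact permutation p = 0.571). None of the 6 ratios passed 0.05 after adjustment, which 3 at the smallest possible p could not do. This test does not use the pairs. An exact sign-flip test of the 4 pair differences cannot go below p = 0.125, the value that all ratios except CHGA over CHGB reached.

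**Figure D3:**
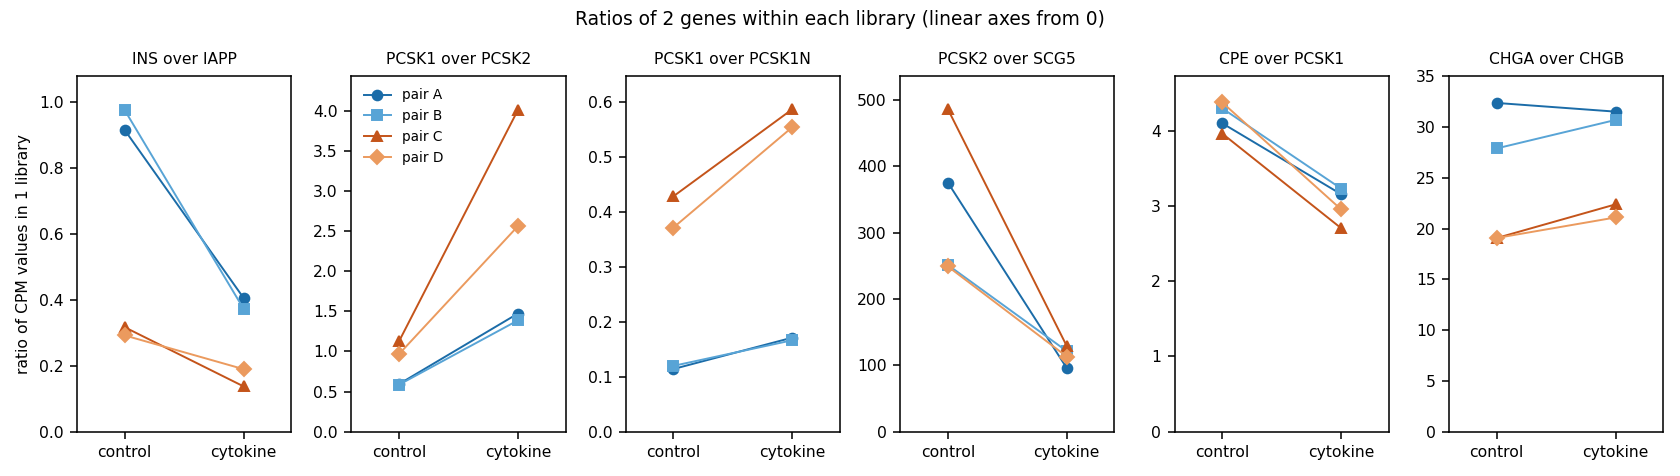
Ratios of the CPM values of 2 genes within each library (vertical axes, linear and starting at 0), with a line joining the 2 libraries of a pair. The ratio PCSK1 over PCSK2 goes up in every pair, from at most 1.13 to at least 1.39, CPE over PCSK1 goes down in every pair, and PCSK1 over PCSK1N is set mainly by the pair.

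For PCSK1, CPE, CHGB, INS and PCSK1N the difference between the 2 name endings was larger than that between the groups. Over both groups, pairs C and D exceeded pairs A and B on the log2 scale by 1.07 for PCSK1, 0.97 for CPE, 0.95 for CHGB, 0.87 for IAPP, 0.77 for SCG2 and 0.36 for CHGA. For PCSK2 and SCG5 the difference was 0.073 and -0.096. INS and PCSK1N went the other way, at -0.59 and -0.70. The delta cell markers moved with the endings as well, at 1776 to 2161 CPM in pairs A and B and 364 to 664 CPM in pairs C and D in sum, and the alpha cell markers summed to 1717 to 2116 and 2122 to 2985 CPM; their part in the levels above was not tested. What the ending stands for is not given in the sources used here, and these are descriptions of 4 libraries against 4.

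Within the endings, the cytokine difference was -0.93 in A and B and -1.13 in C and D for PCSK2, 0.93 and 0.93 for IAPP, 0.95 and 0.79 for SCG2, 0.35 and 0.49 for PCSK1, 0.34 and 0.43 for CHGA, and 0.29 and 0.25 for CHGB, all on the log2 scale. For INS it was -0.35 and 0.013. The interaction of treatment with the ending was called for 0 of the 10 genes by limma and by edgeR, each of which called 5 of all 16525 genes. In either fit 0 of the 10 had an unadjusted p under 0.05, beside 488 of all genes by limma and 447 by edgeR. With the block, limma again called 0 of the 10, beside 68 of all genes. INS alone of the 10 was then under 0.05 before adjustment (adjusted p = 0.284 by limma), beside 1945 of all genes. With so few calls over all genes, 0 of the 10 does not show that the cytokine difference was the same in both endings.

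INS and PCSK1N had much the same profile over the 8 libraries. Among 14682 genes averaging 1 CPM or more, PCSK1N was the 14th closest to INS by the root mean square difference of centred log2(CPM + 0.1), at 0.180, where INS itself had a spread of 0.399. The closest 5 were ENSG00000279692 (0.135), POLR2J, an RNA polymerase II subunit gene (0.135), TBC1D10A (0.138), CAPNS1, the small calpain subunit gene (0.138), and CST3, the cystatin C gene (0.151). The other members ranked between 7779 and 13699, with IAPP the farthest at 0.924.

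Per length, CHGA had the highest and SCG5 the lowest mean level of the 10 in both groups. In TPM (reads per exon length, scaled to an equal sum in every library, with exon lengths of GENCODE 29), the mean levels in control libraries were 24075 for CHGA, 10386 for INS, 7514 for IAPP, 5473 for PCSK1N, 2508 for CPE, 981 for SCG2, 743 for CHGB, 337 for PCSK1, 292 for PCSK2 and 2.89 for SCG5. With cytokines they were 34554 for CHGA, 15325 for IAPP, 9733 for INS, 5527 for PCSK1N, 2589 for CPE, 1897 for SCG2, 960 for CHGB, 497 for PCSK1, 152 for PCSK2 and 4.30 for SCG5. INS and IAPP overlapped in both groups, and INS was above IAPP in A and B and below it in C and D in both groups. By these values their order differed between the means but within no pair. These INS values divide by all 776 exon bases. Over the 530 bases not shared with INS-IGF2, INS was above IAPP in 4 of 4 control libraries and in 2 of 4 cytokine libraries. By that length the order turned within pairs C and D, where INS was above IAPP in control and below it with cytokines. PCSK1 and PCSK2 overlapped in control libraries, where PCSK1 was higher in 2 of 4, and did not overlap with cytokines, where PCSK1 was higher in 4 of 4. IAPP was above PCSK1N in 2 of the 4 control libraries. The other neighbours had the order of their means in all 4 libraries of a group, although most of their ranges overlapped. The 10 genes together took 2.74%, 2.89%, 4.22% and 2.90% of all reads in control libraries A to D and 3.64%, 3.31%, 6.01% and 3.79% with cytokines, and CHGA held 59.1% to 63.2% of that sum.

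**Figure D4:**
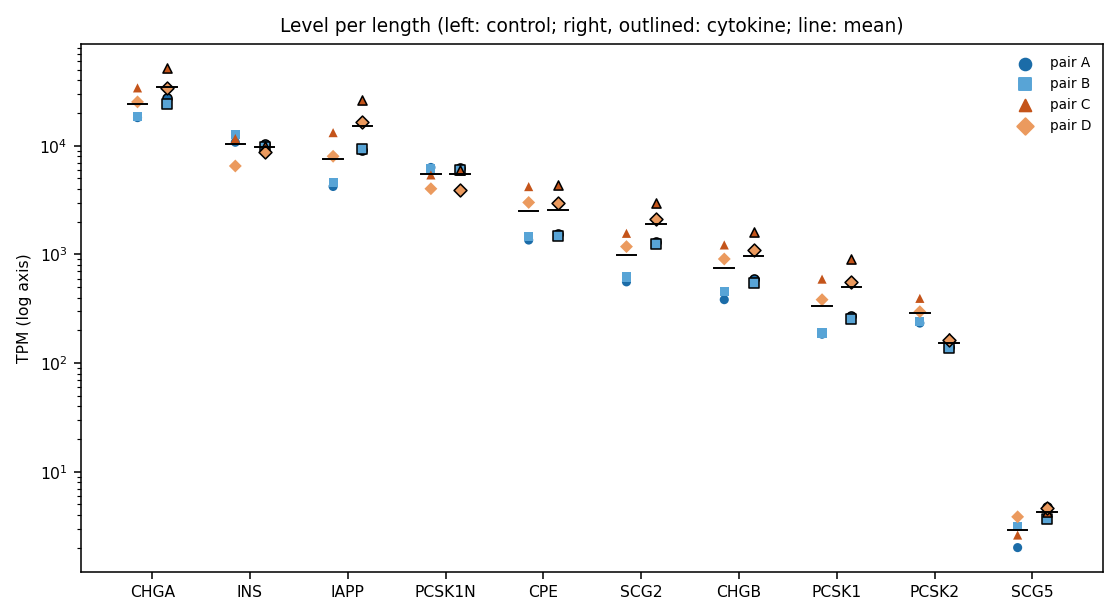
Level per length of each gene in TPM (vertical axis, log scale) in the 4 control libraries (left in each column) and the 4 cytokine libraries (right, outlined), with a line at each mean; colours and shapes are the pairs. The genes span from CHGA, with a control mean of 24075 TPM, to SCG5 at 2.89 TPM, and PCSK1 and PCSK2 separate with cytokines.

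The wider pathway was read from 6 lists with 54 measured genes, of which 18 were called, beside 27.0% of all genes. TMM scaling called 22, the block 21, and the block and TMM together 27, beside 4087, 5852 and 5328 of all 16525 genes. Over all genes 1574 were called higher and 2896 lower on the CPM scale without the block, and 2154 and 1933 with TMM. With the block they were 1917 and 3935, and with both 2614 and 2714. Among other proprotein convertases, 6 of 7 were measured and 1 was called, lower with cytokines. MBTPS1, the site-1 protease gene, was at 121 ± 11.4 and 156 ± 8.02 CPM and was called higher after TMM scaling only. The list's median was 0.023, beside -0.17 over all genes. Of 5 measured genes for other carboxypeptidases and the modification of peptide ends, CPM, a membrane carboxypeptidase gene, fell from 5.06 ± 0.604 to 2.84 ± 0.916 in CPM units (log2 fold change -0.86, adjusted p = 0.0243 by limma). PAM, which amidates peptide ends such as that of the IAPP peptide, was at 404 ± 137 and 395 ± 116 CPM (log2 fold change -0.014). QPCT, which cyclizes glutamine at peptide starts, had a log2 fold change of 0.46 that was called with TMM only, and under TMM this list counted 2 higher and 1 lower against 0 and 1.

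Of 8 measured genes among 15 other granins and granule peptides, 2 were called, both higher. SCG3, which binds CHGA at the granule membrane, rose from 645 ± 142 to 1164 ± 117 CPM (log2 fold change 0.87, adjusted p = 0.00368 by limma), close to the change of SCG2. VGF, the precursor of several granule peptides, rose from 121 ± 22.9 to 514 ± 401 CPM (log2 fold change 1.82, adjusted p = 0.00511 by limma), with pair differences from 1.16 to 2.85. GNAS, whose locus encodes a granin-like protein beside a G-protein subunit, was the most abundant at 13926 ± 2614 and 14573 ± 2636 CPM and was not called. The list's median was 0.24.

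Of 12 genes for the granule membrane and granule formation, 1 was called higher and 1 lower, with a median of 0.046. SLC30A8, the transporter that loads granules with zinc, fell from 505 ± 88.9 to 219 ± 24.4 CPM (log2 fold change -1.20, adjusted p = 0.000178 by limma). ICA1L rose from 30.0 ± 3.55 to 46.9 ± 4.28 CPM (log2 fold change 0.65, adjusted p = 0.00331 by limma). PTPRN, the granule membrane protein IA-2, was at 2298 ± 215 and 2092 ± 196 CPM, and HID1, which acts in granule formation, at 366 ± 92.6 and 452 ± 92.8 CPM, and neither was called. With TMM the list counted 2 higher and 1 lower.

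Proinsulin folding in the ER was read from 10 genes, of which 2 rose and 2 fell, with a median of 0.47. With TMM the split was 4 higher and 1 lower, with the block 4 and 2, and with both 7 and 1. The same fits called 2154 and 1933, 1917 and 3935, and 2614 and 2714 of all 16525 genes. PDIA6, a disulfide isomerase gene, rose from 156 ± 45.0 to 324 ± 74.9 CPM (log2 fold change 1.07, adjusted p = 0.00305 by limma), and HSP90B1, an ER chaperone gene, from 275 ± 84.1 to 477 ± 129 CPM (log2 fold change 0.81, adjusted p = 0.0264 by limma). ERO1B, the oxidase that drives disulfide formation in beta cells, fell from 608 ± 115 to 368 ± 35.5 CPM (log2 fold change -0.71, adjusted p = 0.00607 by limma), and its relative ERO1A fell by 0.51 on the log2 scale (adjusted p = 0.0073 by limma), a call lost with TMM. P4HB, the most abundant of the isomerases, was at 665 ± 163 and 911 ± 183 CPM and was called with TMM but not on the CPM scale.

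Of 13 regulators of INS transcription, 8 fell and none rose, beside 17.5% of all genes called lower and 9.52% called higher. The list had a median of -0.58 beside -0.17 over all genes. With TMM 5 fell and 2 rose, beside 1933 and 2154 of all 16525 genes. The largest change was that of MAFA, a transcription factor of mature beta cells, from 22.5 ± 5.86 to 4.57 ± 0.990 CPM (log2 fold change -2.27, adjusted p = 2.12e-05 by limma). INSM1 fell from 653 ± 70.9 to 341 ± 37.5 CPM (log2 fold change -0.94, adjusted p = 0.000518 by limma). PAX6 was at 621 ± 86.4 and 422 ± 102 CPM (log2 fold change -0.58, adjusted p = 0.0407 by limma) and was not called with TMM. These lists were assembled with earlier results known, and their counts are descriptions.

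**Figure D5:**
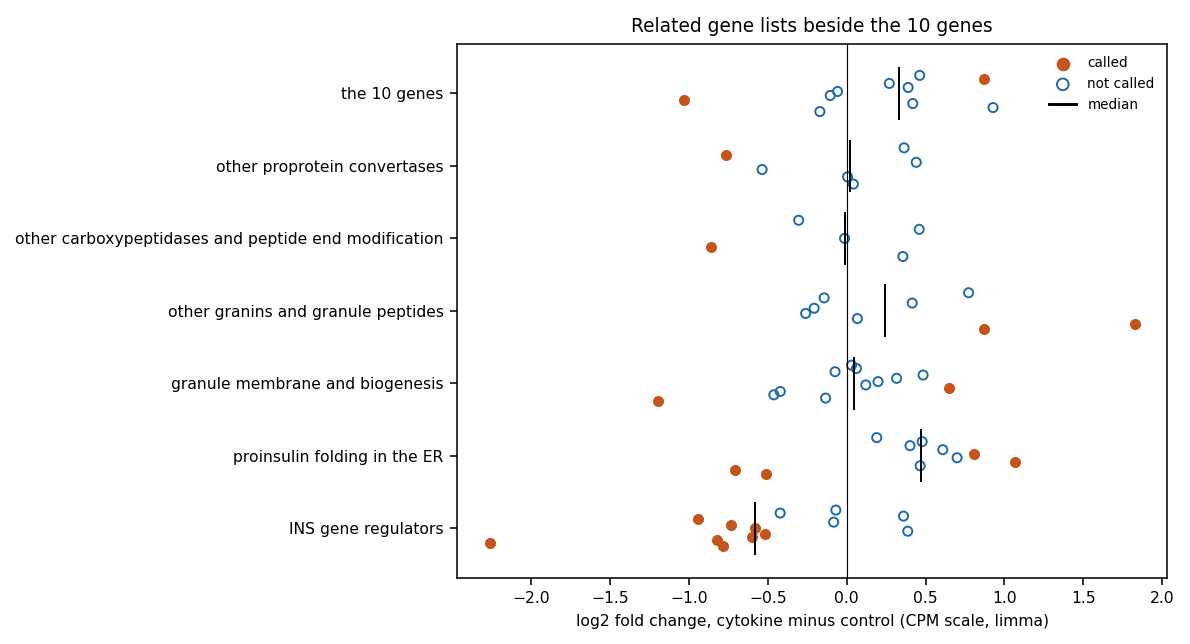
Log2 fold change, cytokine minus control, on the CPM scale (horizontal axis) of each measured gene of the 10 and of the 6 related lists (rows); filled points were called by limma, open points were not, and the vertical bar is the row's median. The row of INS regulators has its median at -0.58 and the row of proinsulin folding at 0.47.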

How the data were processed

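RNA from EndoC-βH5 cells was made into strand-specific mRNA libraries and sequenced as paired reads by the authors. They aligned the reads to GRCh38 with TopHat2 2.1.1, counted them on Ensembl 107 genes with HTSeq 0.9.1 at default settings, required 0.5 CPM or more of a gene in 4 or more samples, and deposited the values as CPM. Of the value columns in the table, 8 were used and 4 were not. In the 8 used, 371 genes were above 0.5 CPM in fewer than 4 libraries. All values (100%) were whole multiples of 1 read within 0.01, and 1 read was worth 0.0196 to 0.0214 CPM, so reads were recovered; limits from reads cover counting error only, with 3 reads as the limit behind a 0.

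Groups were compared in limma 3.58.1 (R 4.3.3) after adding 0.1 to each CPM value and taking log2; eBayes used its trend option, and p-values were adjusted by Benjamini-Hochberg across all 16525 genes. Alternatives were TMM, median-of-ratios, quantile and GAPDH scaling, pseudocounts of 0.5 and 1, a mean of at least 1 CPM, no trend, edgeR 4.0.16 and DESeq2 1.42.0 on recovered reads, a replicate block, and leaving out each library. A fold change is on the log2(CPM + 0.1) scale and understates changes of low genes. The block with TMM in limma, the sign-flip test of ratios and the INS level over unshared exon bases were added after the data were seen. Each control column shares its name prefix with 1 cytokine column. Deviations from the group means of 14683 genes correlated within these pairs at r = 0.574, 0.590, 0.797 and 0.741, and the pairs were therefore used as a block, although control A with cytokine B (0.571) and control B with cytokine A (0.594) correlated as well. No 2 libraries agreed within sampling noise. Libraries A and B were the closest in each group, with a chi-square per gene of 13.3 in control and 5.90 in cytokine libraries. The other comparisons within a group gave 66.9 to 296. Fits with the block count A and B as separate pairs, although the labels do not say that they were separate cultures. Scripts were tested on simulated data.

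Named genes were all 10 members, from each related list the 2 of highest mean CPM and the 2 called with the largest change, the 5 genes closest to INS, and genes overlapping a member; ERO1A was named after its values were seen, and some items that the rule names are not reported here. The members, lists and tests were chosen with earlier results of these data known. Coordinates are from GENCODE 29, and 358 genes had no length there.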

Additional observations from a re-analysis of the deposited data

Results flagged for a closer look

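In 3 of 32 groups of 4 libraries examined, 1 library lay apart from the other three by Dixon's test at the 95% level, where chance flags about 1 in 20. PCSK2 was at 657.842 CPM in control library C (gap over range 0.838), above the other controls, and CHGA at 24930.4 CPM in the same library (0.842). SCG5 was at 2.7679 CPM in cytokine library A (0.832), from 130 reads.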

How the results depend on the processing

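PCSK2 was called in the same direction in every alternative fit run, and SCG2 was lost with quantile normalization and without the intensity trend, and within pairs C and D alone. Over the 10 genes and all alternatives, 182 log2 fold changes kept their direction and side of the threshold, 17 newly passed it, 8 no longer passed it (all SCG2), and 23 turned sign (CPE, PCSK1N and INS, none of them called); the cause was not tested. The number of the 10 genes called was 1 without the intensity trend, 5 with DESeq2 and 6 with the replicate block and TMM in edgeR or limma, and 1 to 3 when 1 library was left out. The 5 with DESeq2 were IAPP, PCSK2, CHGA, SCG2 and SCG5, beside 4503 of all genes. Over all genes, 3899 to 4339 were called when 1 library was left out. INS turned to 0.038 relative to GAPDH and to 0.013 within pairs C and D. PCSK1N turned to 0.048 with TMM, 0.057 with median-of-ratios scaling, 0.10 relative to GAPDH, 0.023 with edgeR, 0.033 with DESeq2, and 0.047 in edgeR and 0.048 in limma with the replicate block and TMM, and ranged from -0.31 to 0.11 when 1 library was left out. CPE turned to 0.094 with TMM, 0.10 with median-of-ratios scaling, 0.15 relative to GAPDH, 0.12 with edgeR, 0.13 with DESeq2 and 0.094 with the replicate block and TMM in edgeR or limma, and ranged from -0.32 to 0.19 when 1 library was left out. The replicate block alone in limma changed only the call of IAPP among the 10, with 3 called, and 0 of 6 ratios passed when tested within pairs. Apart from SCG5, at 61 to 130 reads, each of the 10 genes had at least 12127 reads in every library.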
